A study of Mus musculus with 16 samples.

Results

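The transcripts of the mTOR complexes, of the tuberous sclerosis complex (TSC) and of the sestrins were followed through 10 genes, Mtor, Rptor, Rictor, Tsc1, Tsc2, Rheb, Ddit4, Sesn1, Sesn2 and Sesn3, which were picked by symbol from the 53090 gene rows measured in each of 16 libraries. Each symbol matched 1 row, and all 10 genes passed the count filter in every comparison. The study asked how loss of AIM2, a cytosolic sensor of double-stranded DNA, affects CD4+ T cells and their differentiation into regulatory T cells, and RNA was sequenced in 4 groups of 4 libraries. WT Tn and Aim2-/- Tn were naïve CD4+ T cells taken from the spleen and not cultured. WT Treg and Aim2-/- Treg were CD4+ T cells kept for 48 h with anti-CD3/CD28 antibodies, recombinant human TGF-beta and recombinant mouse IL-2. These cultures were started from naïve CD4+ T cells according to the paper. The cells were not sorted for FOXP3 before RNA extraction as far as the methods say. WT mice were C57BL/6, and the knockout was carried on the C57BL/6 background in all tissues. Animals were described as matched for age and sex, while their age and the number of mice behind a library are not given in the sources used here, so that p-values measure the spread between these libraries. Stimulation, cytokines and time in culture all separate Treg from Tn libraries and cannot be told apart.

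mTOR is a kinase that works in a pair of complexes. mTORC1, built on Raptor (Rptor), promotes protein synthesis and growth when the small GTPase Rheb is loaded with GTP, and mTORC2, built on Rictor, phosphorylates AKT. The TSC proteins switch Rheb off, REDD1 (Ddit4) acts through TSC, and sestrins restrain mTORC1 when amino acids are scarce or cells are stressed, with Sestrin2 binding leucine. In T cells mTORC1 drives growth after antigen recognition, and its restraint favours FOXP3 expression. Much of this control acts on proteins, and only transcripts were measured here.

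The libraries held 22516424 to 34533316 counts, and a member had at least 160 counts in every library. Levels are given as CPM, counts relative to the TMM-scaled library total and 95% intervals come from the fits across replicates. Aim2 itself stood at 34.9 ± 2.86 CPM in WT Tn, 7.29 ± 1.29 in Aim2-/- Tn, 40.3 ± 3.11 in WT Treg and 9.33 ± 1.58 in Aim2-/- Treg (SD, n = 4 each), so that the genotype labels held in all 16 libraries although part of the transcript was still read in the knockout. The 6 CD4 T cell markers listed (Cd3d, Cd3e, Cd3g, Cd4, Lck, Trbc2) summed to 3684 to 4200 CPM in WT Tn and to 1775 to 1978 in WT Treg. Foxp3 stood at 2.72 ± 0.95 CPM in WT Tn and 481.0 ± 136.5 in WT Treg, and at 2.87 ± 0.308 and 430.8 ± 137.4 in the Aim2-/- groups. Replicates 1 and 2 were apart from replicates 3 and 4 in many genes: their values did not overlap in 65.3% of 14669 genes in WT Tn, 38.9% in Aim2-/- Tn, 48.9% in WT Treg and 59.7% in Aim2-/- Treg. Among 4 libraries such pairs also fall apart by chance in a large share of genes, so that the 38.9% in Aim2-/- Tn is not read as a split. The labels name no batch for replicates 1 and 2 against 3 and 4, and changes with culture are given within each pair of replicates too for Rptor, Rictor, Rheb, Ddit4, Sesn2 and Sesn3. Fits within a pair of replicates hold 2 against 2 libraries, and their p-values leave out the spread between the pairs.

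The promoters of 3 members are shown because Sesn1 and Sesn2 lay on opposite sides of 0 with culture while Sesn2 and Ddit4 differed most between replicates of Tn. The stretches are the 250 bases before the RefSeq start (GRCm38.p6), and a further stretch of 30 bases lies just after the Sesn1 start. Capitals mark matches to the motifs searched on both strands, which were the FOXO core GTAAACA, the C/EBP-ATF element TGATGNAA and the hypoxia-response core ACGTG.
Sesn1, plus strand, chr10:41810324-41810573: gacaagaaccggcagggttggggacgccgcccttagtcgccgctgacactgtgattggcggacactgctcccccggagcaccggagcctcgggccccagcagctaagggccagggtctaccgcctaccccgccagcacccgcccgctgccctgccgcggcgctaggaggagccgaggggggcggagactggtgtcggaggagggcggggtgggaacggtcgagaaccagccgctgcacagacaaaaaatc
Sesn1, plus strand, after the start, chr10:41810586-41810615: aaccttctacTGTTTACcagccttttggga
Sesn2, minus strand, chr4:132510457-132510706: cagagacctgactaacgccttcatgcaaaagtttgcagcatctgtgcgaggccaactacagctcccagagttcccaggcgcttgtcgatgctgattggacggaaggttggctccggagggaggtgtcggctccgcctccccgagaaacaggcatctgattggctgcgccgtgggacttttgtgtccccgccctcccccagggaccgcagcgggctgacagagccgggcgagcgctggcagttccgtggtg
Ddit4, minus strand, chr10:59951771-59952020: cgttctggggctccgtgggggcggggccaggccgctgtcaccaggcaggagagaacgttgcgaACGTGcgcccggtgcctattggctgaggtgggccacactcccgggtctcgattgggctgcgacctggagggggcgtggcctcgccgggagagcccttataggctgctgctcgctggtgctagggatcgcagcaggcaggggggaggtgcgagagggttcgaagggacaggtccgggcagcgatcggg
Windows from 250 bases before to 50 after the start were searched for all members, and 11 windows matched the 10 symbols, with a pair of starts for Sesn1. The FOXO core was in 3.65% of 32851 windows of this length, and among the members in 1 window of Sesn1, where it reads TGTTTAC on the printed strand and begins 23 bases into the transcript. ACGTG was in 19.6% of windows, and among the members in those of Ddit4, Rheb and Rptor, with a pair of overlapping matches on opposite strands for Rheb. TGATGNAA was in 3.97% of windows and in 0 of the 11. A match is a description of the letters and no measure of binding.

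The members changed with culture in a mixed pattern. In WT cells Mtor and Rheb rose and Rictor, Tsc1, Tsc2, Sesn1 and Sesn3 fell, so that 7 of 10 passed the test against 76.9% of the 13675 genes tested, with 2 higher (37.7% of all genes) and 5 lower (39.2%), a share close to that of all genes. In Aim2-/- cells 9 of 10 passed against 79.3% of 13713 genes: the same 7 in the same directions, with Rptor and Sesn2 higher as well, which makes 4 higher (39.1%) and 5 lower (40.2%). Treg and Tn libraries did not overlap for 7 members in WT (72.9% of all genes) and for 6 in Aim2-/- cells (74.7%). The largest called falls were those of Sesn1 and Rictor in both genotypes. The median log2 fold change of the 10 genes was -0.57 in WT and -0.43 in Aim2-/- cells, beside -0.05 and -0.04 over all genes tested. The sizes were ordinary for these cells: Sesn1 changed more than 76.6% of all genes in WT in absolute log2 terms, Rictor more than 68.3%, and Mtor more than only 25.0%. The comparisons with culture in WT and in Aim2-/- cells share no library, while the comparisons between genotypes use the same Tn and Treg libraries again. Most marker lists of other cells moved with culture too. In WT the 6 B cell markers summed to 6.82 to 8.56 CPM in Tn and 32.0 to 46.0 in Treg, with Ms4a1 at 0 in both. These genes did not all rise. Those with at most 3 counts in every library went from 1 in WT Tn to 2 in WT Treg, and from 1 to 3 in the Aim2-/- groups. Their sum is thus not read as a content of B cells. The 5 myeloid markers matched summed to 1.14 to 4.38 CPM in WT Tn and 0.113 to 0.581 in WT Treg. The 5 erythroid markers summed to 1.22 to 3.96 and 0.0609 to 0.188. The CD8 T cell list was at 8.91 to 12.1 in WT Tn and 2.29 to 4.07 in WT Treg, while the NK list overlapped (13.0 to 27.1 and 13.4 to 43.1). The part of these other cells in the changes with culture was not tested.

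**Figure D1:**
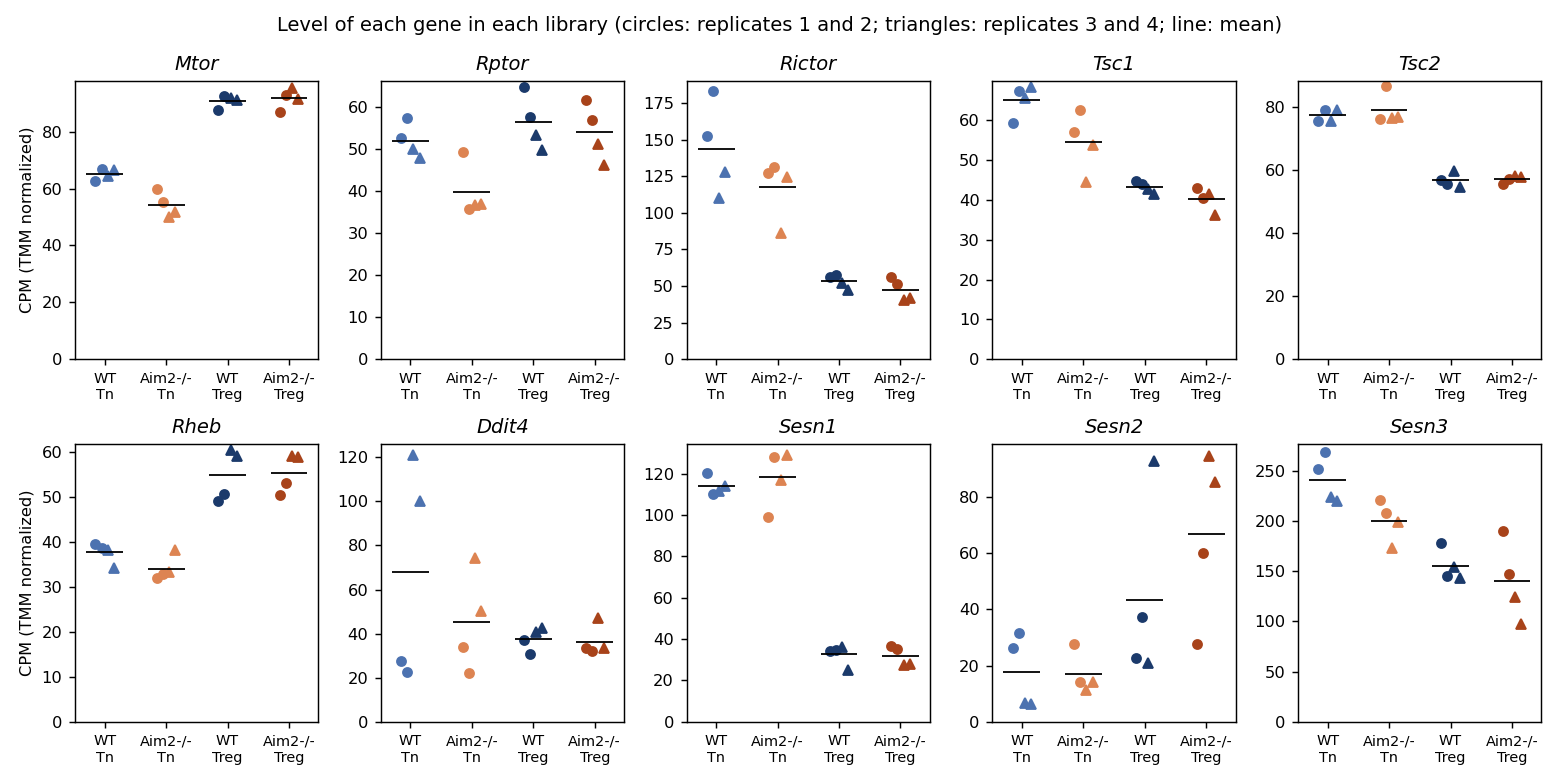
TMM-normalized CPM (vertical axes, each from 0) of the 10 genes in each of the 16 libraries, by group, with circles for replicates 1 and 2, triangles for replicates 3 and 4 and a line at the group mean (n = 4). Sesn1 lies at 99.2 to 129.3 in all 8 Tn libraries and at 25.1 to 36.5 in all 8 Treg libraries, whereas Ddit4 in WT Tn splits into 22.6 to 27.4 and 100.1 to 121.2.

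Mtor, at chromosome 4 (148448611 to 148557683, plus strand, GRCm38) and encoding the kinase shared by both complexes, was at 62.6, 67.0, 64.5 and 66.4 CPM in WT Tn and at 87.8, 92.5, 91.9 and 91.2 in WT Treg. In the knockout it was at 60.0, 55.4, 50.0 and 51.6 in Tn and at 87.0, 93.0, 95.6 and 91.5 in Treg. Every Treg library was above every Tn library. Mtor rose by 0.43 on the log2 scale in WT (SE 0.06, edgeR adjusted p = 0.00011) and by 0.70 in Aim2-/- cells (SE 0.08, adjusted p = 5.6e-06). Its coefficient of variation was 3.0% in WT Tn, 8.2% in Aim2-/- Tn, 2.3% in WT Treg and 4.0% in Aim2-/- Treg, below the medians over all genes of 16.2%, 13.9%, 12.2% and 13.5%. Those medians take in genes with far fewer counts than the 1367 to 3195 of Mtor, and genes of a like level were not compared.

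Rptor (chromosome 11, 119602905 to 119899576, plus strand), the mTORC1 scaffold that recruits substrates, was at 52.7, 57.3, 50.0 and 47.8 CPM in WT Tn and 64.7, 57.7, 53.2 and 49.8 in WT Treg. These ranges overlapped, and the log2 fold change was 0.07 (95% interval -0.16 to 0.29, adjusted p = 0.57). Corrected for GC content and exon length it was 0.31 (adjusted p = 0.011). In Aim2-/- cells Rptor was at 49.2, 35.8, 36.7 and 37.0 in Tn and 61.6, 56.8, 51.1 and 46.2 in Treg, and it rose by 0.39 (SE 0.12, adjusted p = 0.013) although replicate 1 of Aim2-/- Tn lay inside the Treg range. This call was lost without replicate 2, 3 or 4 of Aim2-/- Tn (0.30, 0.31 and 0.30, adjusted p = 0.073, 0.064 and 0.075). Within replicates 1 and 2 and within 3 and 4 the Rptor values were 0.15 and 0.01 in WT and 0.42 and 0.31 in Aim2-/- cells. The culture effects of the genotypes differed by 0.30 for Rptor (SE 0.16, unadjusted p = 0.079, adjusted p = 1), so that a difference between genotypes was not shown.

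Rictor (chromosome 15, 6708379 to 6800401, plus strand), the defining scaffold of mTORC2, was at 153.0, 183.2, 110.5 and 128.4 CPM in WT Tn and 55.9, 57.2, 51.9 and 47.6 in WT Treg. The knockout values were 127.4, 131.5, 86.6 and 124.6 in Tn and 56.3, 51.5, 40.2 and 41.6 in Treg. All 8 Treg libraries were below all 8 Tn libraries. Rictor fell by 1.49 on the log2 scale in WT (SE 0.15, adjusted p = 9.6e-06) and by 1.36 in Aim2-/- cells (SE 0.15, adjusted p = 8e-06). It was also lower in replicates 3 and 4 than in 1 and 2 in every group, a pattern found in 2.89% of 14669 genes, and the values within replicates 1 and 2 and within 3 and 4 were -1.57 and -1.33 in WT and -1.33 and -1.46 in Aim2-/- cells, all called.

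The scaffolds of the complexes traded places per length. Divided by exon length (CPM per kb), the Rictor level was 1.76 to 2.55 times the Rptor level in the WT Tn libraries and 1.88 to 2.93 times in Aim2-/- Tn. In Treg libraries the same ratio was 0.688 to 0.789 in WT and 0.627 to 0.727 in Aim2-/- cells. Rictor was thus above Rptor in 8 of 8 Tn libraries and below it in 8 of 8 Treg libraries. Mtor per kb was 6.44 ± 0.196 in WT Tn and 8.99 ± 0.206 in WT Treg (SD, n = 4), above Rptor (3.86 ± 0.302 and 4.18 ± 0.477) in both.

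The negative regulators of Rheb and Rheb itself moved in opposite directions. Tsc1 (chromosome 2, 28641228 to 28691167, plus strand), which stabilizes its partner, was at 59.4 to 68.3 CPM in WT Tn and 41.4 to 44.7 in WT Treg, and at 44.5 to 62.6 and 36.1 to 43.0 in the Aim2-/- groups. Its ranges did not overlap in either genotype, and it fell by 0.65 in WT (SE 0.07, adjusted p = 2.4e-05) and by 0.49 in Aim2-/- cells (SE 0.11, adjusted p = 0.0014). Tsc2 (chromosome 17, 24595816 to 24632630, minus strand), the subunit that carries the GTPase-activating activity, was at 75.6 to 79.3 in WT Tn and 54.8 to 59.8 in WT Treg, and at 76.4 to 86.8 and 55.8 to 58.3 in the Aim2-/- groups. It fell by 0.50 (SE 0.06, adjusted p = 4.9e-05) and by 0.52 (SE 0.07, adjusted p = 4.1e-05). Tsc2 shares 693 exon bases with Pkd1 on the opposite strand, and its expected counts were not whole in 15 libraries, so that some of its reads had been divided with another gene. Pkd1 stood at 188.9 to 262.3 CPM in WT Tn and 51.4 to 62.3 in WT Treg, moving the same way as Tsc2, and its part in the Tsc2 values was not tested.

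Rheb (chromosome 5, 24802823 to 24842624, minus strand), the GTPase that activates mTORC1, was at 34.2 to 39.7 CPM in WT Tn and 49.2 to 60.5 in WT Treg. The Aim2-/- groups were at 32.0 to 38.3 and 50.5 to 59.1. The states did not overlap, and Rheb rose by 0.49 in WT (SE 0.09, adjusted p = 0.00073) and by 0.64 in Aim2-/- cells (SE 0.09, adjusted p = 4.4e-05). Corrected for GC content and exon length the rise was smaller, at 0.31 in WT (adjusted p = 0.0074) and 0.37 in Aim2-/- cells (adjusted p = 0.0042). The pairs of replicates did not overlap for Rheb in any group, as in 10.1% of 14669 genes. The mean of replicates 3 and 4 was 0.923 times that of replicates 1 and 2 in WT Tn. In the other groups it was higher, at 1.1 times in Aim2-/- Tn, 1.2 in WT Treg and 1.14 in Aim2-/- Treg. Within replicates 1 and 2 and within 3 and 4 Rheb rose by 0.35 and 0.65 in WT and by 0.61 and 0.63 in Aim2-/- cells. As CPM per kb, the level of Tsc2 (8.05 ± 0.216) was above Rheb (4.88 ± 0.312) in WT Tn, and below it in WT Treg (5.91 ± 0.226 and 7.11 ± 0.74). In CPM, not divided by length, the means of Tsc2 and Rheb were 77.5 and 37.7 in WT Tn. In WT Treg they were 56.8 and 54.9, with ranges that overlapped, so that the order there depends on the length used.

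**Figure D2:**
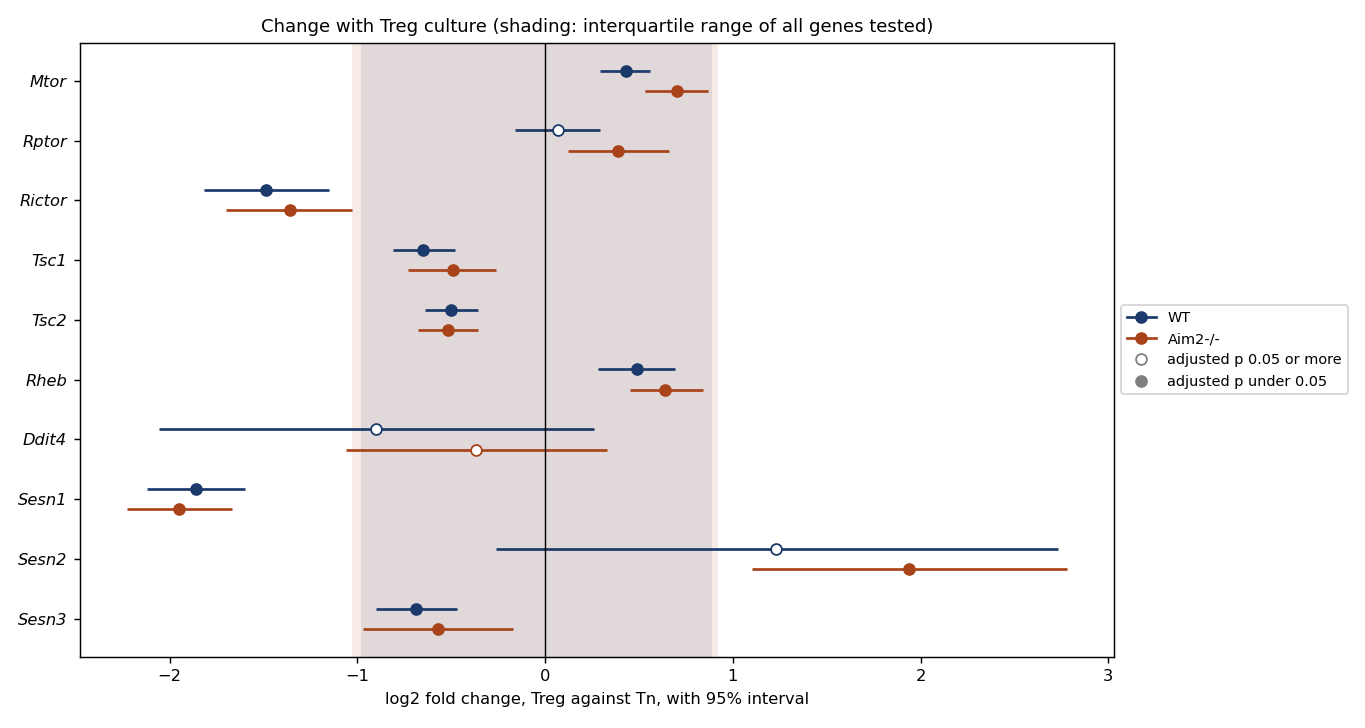
Log2 fold change of Treg against Tn (horizontal axis, with its 95% interval) of each gene in WT and in Aim2-/- cells from the edgeR fits (4 against 4 libraries each), filled where adjusted p is under 0.05, with shading over the interquartile range of all genes tested. Sesn1 and Rictor lie outside the shading on the low side, at -1.86 and -1.49 in WT, while the intervals of Ddit4 and Sesn2 are far wider than those of the other genes.

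Ddit4 (chromosome 10, 59949669 to 59951834, minus strand) encodes REDD1, an inhibitor of mTORC1 induced by hypoxia, glucocorticoids and other stress. It was at 27.4, 22.6, 121.2 and 100.1 CPM in WT Tn and 33.8, 22.3, 74.3 and 50.4 in Aim2-/- Tn. In Treg libraries it was at 36.9, 30.6, 40.7 and 42.6 in WT and 33.4, 32.0, 46.9 and 33.3 in Aim2-/- cells. The cultured cells held a narrow range, while the naïve cells split by replicate: the mean of replicates 3 and 4 was 4.43 times that of replicates 1 and 2 in WT Tn and 2.22 times in Aim2-/- Tn. The coefficient of variation was 74.1% in WT Tn, above that of 94.6% of all genes.

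This split decided what could be said of culture. Over all replicates the log2 fold change of Ddit4 was -0.90 in WT (95% interval -2.06 to 0.26, adjusted p = 0.13) and -0.37 in Aim2-/- cells (-1.06 to 0.33, adjusted p = 0.30), and neither passed the test. Within replicates 1 and 2 it was 0.42 in WT (adjusted p = 0.013), and within replicates 3 and 4 it was -1.48 (adjusted p = 1.7e-05). These pairs follow the split of Ddit4 itself in Tn, so that the spread made by the split is left out of these p-values. For the knockout the values within these pairs were 0.16 and -0.72, the latter with adjusted p = 0.027. Without replicate 2 of WT Tn the WT difference passed (-1.23, adjusted p = 0.034), and without replicate 2 of Aim2-/- Tn that of the knockout did (-0.64, adjusted p = 0.046).

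Among the sestrins, Sesn1 (chromosome 10, 41809935 to 41908424, plus strand), a p53 and FOXO target, showed the largest called change of the 10 genes in WT, and a change about as large as that of Sesn2 in Aim2-/- cells. It was at 120.3, 110.0, 111.8 and 114.3 CPM in WT Tn and 34.3, 34.6, 36.2 and 25.1 in WT Treg. The Aim2-/- libraries were at 99.2, 127.9, 116.8 and 129.3 in Tn and 36.5, 35.4, 27.3 and 28.1 in Treg. The states lay far apart in all libraries, and Sesn1 fell by 1.86 in WT (SE 0.12, adjusted p = 3.6e-07) and by 1.95 in Aim2-/- cells (SE 0.13, adjusted p = 7.7e-08). Bulk RNA does not tell whether fewer cells carried a transcript or each cell carried less.

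Sesn2 (chromosome 4, 132492032 to 132510501, minus strand), the leucine sensor and a target of the ATF4 stress response, was at 26.2, 31.5, 6.7 and 6.34 CPM in WT Tn and 22.5, 37.1, 20.8 and 92.9 in WT Treg. In Aim2-/- cells it was at 27.7, 14.2, 11.2 and 14.3 in Tn and 27.6, 60.1, 94.5 and 85.4 in Treg. One library, replicate 4, held the WT Treg mean up, and replicates 1 and 2 of WT Tn overlapped the other 3 WT Treg libraries. The log2 fold change in WT was 1.23 (95% interval -0.26 to 2.73, adjusted p = 0.12), and without replicate 4 of WT Treg it was 0.60. Within replicates 1 and 2 it was 0.05, and within replicates 3 and 4 it was 3.05 (adjusted p = 0.068). In Aim2-/- cells Sesn2 rose by 1.94 (SE 0.38, adjusted p = 0.00075) although replicate 1 of both states stood at about the same level, and within replicates 1 and 2 the value was 1.01 (adjusted p = 0.064) and within replicates 3 and 4 it was 2.73 (adjusted p = 3.8e-09). The culture effects of the genotypes differed by 0.68 for Sesn2 (SE 0.84, adjusted p = 1). Its split between replicates in WT Tn ran against that of Ddit4, with the mean of replicates 1 and 2 at 4.43 times that of replicates 3 and 4.

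Sesn3 (chromosome 9, 14275067 to 14333101, plus strand), a FOXO target in other cells, was at 251.7, 268.7, 224.1 and 219.9 CPM in WT Tn and 177.9, 145.7, 154.3 and 143.0 in WT Treg. The knockout libraries were at 221.1, 208.1, 173.1 and 199.3 in Tn and 190.5, 147.6, 124.8 and 97.3 in Treg. The WT ranges were apart, while replicate 1 of Aim2-/- Treg reached into the Tn range. Sesn3 fell by 0.69 in WT (SE 0.10, adjusted p = 9.9e-05) and by 0.57 in Aim2-/- cells (SE 0.18, adjusted p = 0.013). Its values within replicates 1 and 2 and within 3 and 4 were -0.69 and -0.65 in WT and -0.41 and -0.83 in Aim2-/- cells, all called.

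The makeup of the sestrin pool differed between the states. Per kb of exon, Sesn1 made up 50.9 to 63.9% of the summed sestrin level in WT Tn and 14.9 to 36.1% in WT Treg, and 52.6 to 66.8% and 16.2 to 31.0% in the Aim2-/- groups. Sesn2 made up 4.1 to 16.7% in WT Tn and 23.8 to 63.0% in WT Treg, and 7.3 to 16.8% and 26.8 to 64.7% in the Aim2-/- groups. For both shares the 8 Tn libraries did not overlap the 8 Treg libraries. The share of Sesn2 also depends on Sesn1 and Sesn3, which fell. Replicate 1 of WT Treg held less Sesn2 than replicate 1 of WT Tn (22.5 and 26.2 CPM) at a higher share (24.2 and 13.9%). The level of Sesn2 itself was called higher in Aim2-/- cells and not in WT (edgeR adjusted p = 0.00075 and 0.12). The summed level was 49.5 ± 5.46 CPM per kb in WT Tn and 30.8 ± 7.86 in WT Treg, and 47.7 ± 2.74 and 36.4 ± 5.25 in the Aim2-/- groups (SD, n = 4).

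**Figure D3:**
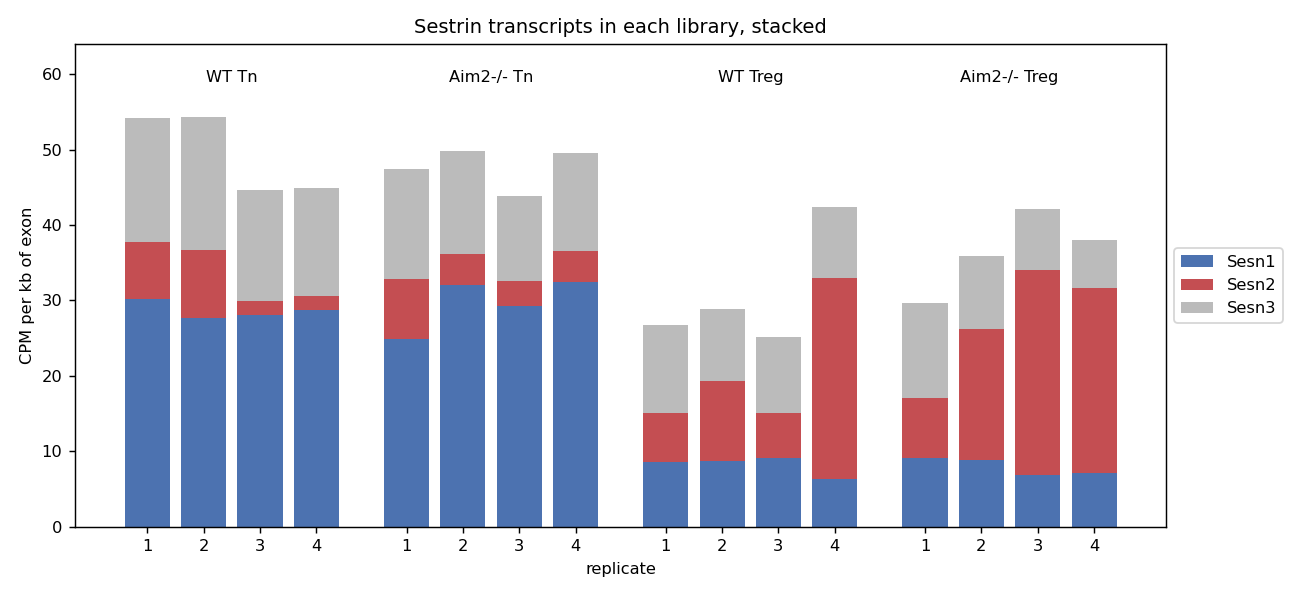
CPM per kb of exon (vertical axis, from 0) of Sesn1, Sesn2 and Sesn3 stacked for each library, with replicates 1 to 4 of each group side by side. Sesn1 is the tallest part in all 8 Tn libraries, and Sesn2 reaches 63.0% of the bar in replicate 4 of WT Treg and 64.7% at most in Aim2-/- Treg.

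Ordered by level per kb in WT Tn, Ddit4 came first on its mean (38.7 ± 28.6) with a spread that covered the second, Sesn1 (28.6 ± 1.13), and Sesn3 followed (15.8 ± 1.52). Rictor (8.49 ± 1.86), Tsc2 (8.05 ± 0.216) and Mtor (6.44 ± 0.196) came next, and the range of Rictor overlapped those of both. Tsc1 (5.51 ± 0.34), Sesn2 (5.09 ± 3.76) and Rheb (4.88 ± 0.312) did not differ beyond their spread, and Rptor (3.86 ± 0.302) was last on its mean. In WT Treg the order was Ddit4 (21.5 ± 3.01), Sesn2 (12.5 ± 9.74), Sesn3 (10.2 ± 1.04), Mtor (8.99 ± 0.206), Sesn1 (8.18 ± 1.27), Rheb (7.11 ± 0.74), Tsc2 (5.91 ± 0.226), Rptor (4.18 ± 0.477), Tsc1 (3.65 ± 0.125) and Rictor (3.14 ± 0.256). There the range of Sesn2 covered its neighbours, and overlaps were also seen between Mtor and Sesn1, Sesn1 and Rheb, and Rptor and Tsc1. Rictor went from the fourth place on the mean to the last.

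Between genotypes no member passed the test in either state. In Tn the count was 0 of 10 by edgeR, against 0.231% of 13441 genes, and in Treg it was 0 of 10 against 0.219% of 13221 genes. DESeq2 and limma-voom called 0 members in either state too. At an unadjusted p under 0.05 there were 3 members in Tn (10.3% of all genes) and 0 in Treg (2.31%). The 3 were Rptor, at -0.37 (95% interval -0.62 to -0.11, unadjusted p = 0.009, adjusted p = 0.39), Mtor, at -0.24 (-0.42 to -0.06, 0.013 and 0.41), and Sesn3, at -0.24 (-0.47 to -0.02, 0.035 and 0.46). In all, 8 of 10 members had a log2 fold change below 0 in Tn, where 47.3% of all genes did, and the exceptions were Tsc2 (0.05) and Sesn1 (0.07).

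Mtor in Tn was the only member with groups that did not overlap: the Aim2-/- libraries, at 50.0 to 60.0 CPM, lay below the WT libraries, at 62.6 to 67.0, as did 3.84% of all genes tested. Uncorrected, Rictor was at -0.27, Tsc1 at -0.23 and Rheb at -0.12 in Tn. After the GC and length correction the Tn values were nearer 0 for Mtor (-0.13), Rptor (-0.25), Rictor (-0.07), Tsc1 (-0.09), Rheb (-0.01) and Sesn3 (-0.06) and farther from 0 for Ddit4 (-0.70), Tsc2 (0.16) and Sesn2 (-0.16). Within replicates 1 and 2 and within 3 and 4, uncorrected, Mtor was at -0.14 and -0.36 and Tsc1 at -0.05 and -0.43. Rictor (-0.35 and -0.17) and Rheb (-0.25 and -0.00) went the other way, and none of these was called. Markers of other cells also differed between these groups. The 5 erythroid markers summed to 1.22 to 3.96 CPM in WT Tn and 5.11 to 7.78 in Aim2-/- Tn, and the 6 B cell markers to 6.82 to 8.56 and 9.8 to 14.9, with Ms4a1 at 0 in both. The myeloid (1.14 to 4.38 and 2.91 to 5.16), CD8 T cell (8.91 to 12.1 and 9.06 to 11.4) and NK lists (13.0 to 27.1 and 13.7 to 33.5) overlapped. Their part in the differences between genotypes was not tested.

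Ddit4 had the largest difference between genotypes in Tn, at -0.57 with a 95% interval of -2.08 to 0.95 (adjusted p = 0.79). Within replicates 3 and 4 it was -0.82 (adjusted p = 0.043) and within replicates 1 and 2 it was 0.19. Sesn2 in Tn was at -0.05 over all replicates (-1.43 to 1.33, adjusted p = 0.98) at -0.44 within replicates 1 and 2 (adjusted p = 0.49) and at 0.98 within replicates 3 and 4 (adjusted p = 0.02). A difference in these genes between genotypes could therefore not be shown over all replicates.

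In Treg the intervals were narrow for most members. Mtor, Tsc2 and Rheb were at 0.00 with intervals of -0.10 to 0.11, -0.11 to 0.11 and -0.19 to 0.20, and Rptor was at -0.07 (-0.32 to 0.18). Rictor was at -0.18 (-0.45 to 0.09), Tsc1 at -0.12 (-0.27 to 0.04) and Sesn3 at -0.16 (-0.58 to 0.26). Ddit4 was at -0.06 (-0.38 to 0.26) and Sesn1 at -0.05 (-0.36 to 0.27). The widest interval was that of Sesn2, at 0.62 (-0.58 to 1.82). Adjusted p was 1 for all 10.

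The interaction test, of whether genotype acted differently in Treg and Tn, called 0 of 10 members by edgeR, DESeq2 or limma-voom, against 0.0205% of 14669 genes by edgeR. At an unadjusted p under 0.05 there was 1 member, Mtor, whose genotype effect was 0.26 higher in Treg than in Tn (95% interval 0.07 to 0.45, unadjusted p = 0.011, adjusted p = 1), where 3.49% of all genes passed that level.

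**Figure D4:**
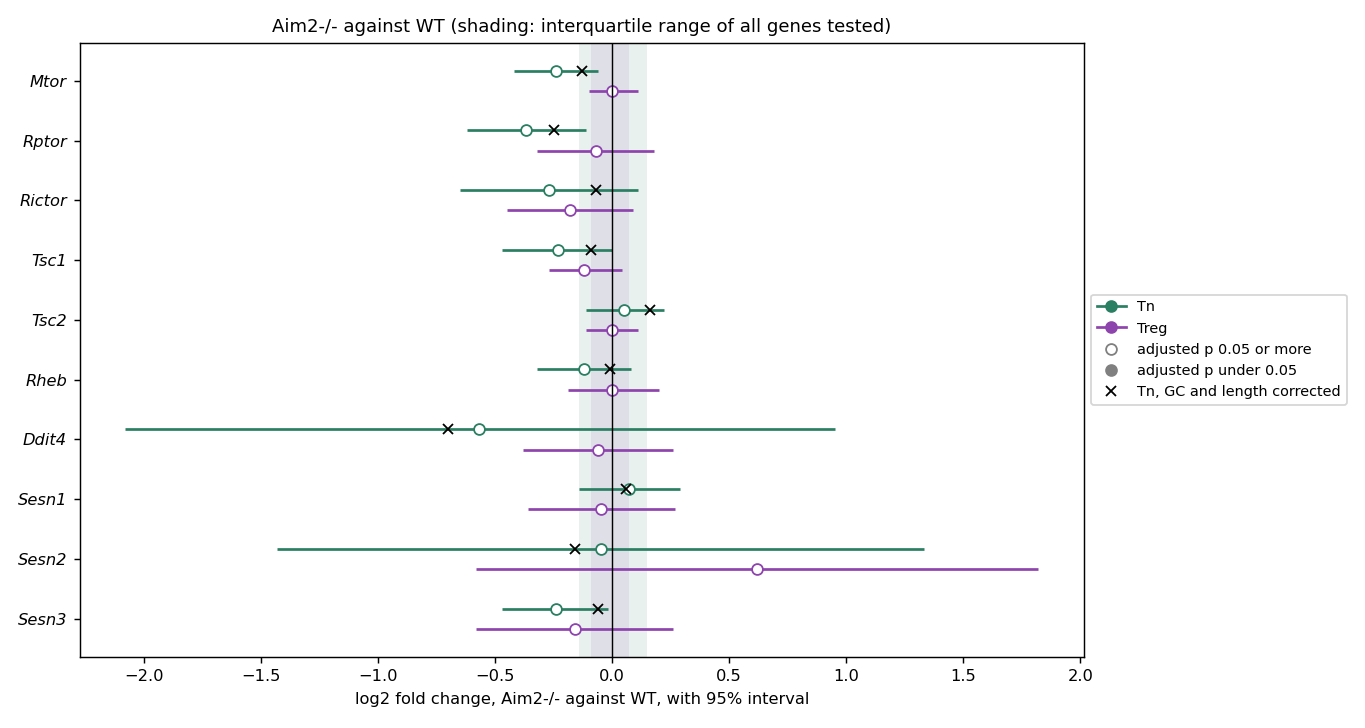
Log2 fold change of Aim2-/- against WT (horizontal axis, with its 95% interval) of each gene in Tn and in Treg from the edgeR fits (4 against 4 libraries each), with crosses for the Tn values after GC and length correction and shading over the interquartile range of all genes tested. All points are open, meaning adjusted p of 0.05 or more, and the crosses of Mtor, Rptor, Rictor, Tsc1, Rheb and Sesn3 lie closer to 0 than their circles while those of Ddit4, Tsc2 and Sesn2 lie farther out.

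The rest of the pathway was followed in 89 genes by role, of which 85 were tested for culture in each genotype. In WT cells 30 were called higher and 34 lower, beside 37.7% and 39.2% of all genes, and in Aim2-/- cells 37 and 34, beside 39.1% and 40.2%. Between genotypes 0 were called in Tn, with 9 of 84 at an unadjusted p under 0.05 (10.3% of all genes), and 0 in Treg, with 0 at that level (2.31%). These shares were near those of all genes, and nothing particular to the pathway is read from the counts by role that follow. Their median log2 fold change with culture was -0.01 in WT and 0.10 in Aim2-/- cells. Values below are log2 fold changes of Treg against Tn in WT and then in Aim2-/- cells, all with edgeR adjusted p under 0.05.

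Of the other subunits and assembly factors of the complexes, 3 of 8 rose and 1 fell in WT. Prr5l, an mTORC2-associated protein, was at 0 to 0.169 CPM in WT Tn and 6.74 to 10.7 in WT Treg, and at 0.0309 to 0.373 and 6.75 to 10.3 in the Aim2-/- groups. Tti1, which helps to assemble the complexes, rose by 0.73 and 0.68. Deptor, an inhibitor of mTOR, rose by 0.64 and 1.07 at a low level (0.807 CPM in WT Tn, 1.3 in WT Treg). Tbc1d7, the further TSC subunit, rose by 2.49 and 2.32 whereas Tsc1 and Tsc2 fell, and the Rheb relative Rhebl1 rose by 0.57 and 0.61.

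Among the genes that bring mTORC1 to the lysosome, 6 of 13 Rag, Ragulator and folliculin genes rose and 4 fell in WT. The Rag GTPase Rragd rose by 3.78 and 4.78 and the folliculin partner Fnip2 by 3.20 and 3.47, while folliculin itself (Flcn) fell by 1.78 and 1.62. The lysosomal arginine sensor Slc38a9 fell by 1.60 and 1.86, and the Ragulator genes Lamtor5 and Lamtor2 went apart, with Lamtor5 up by 0.77 and 0.75 and Lamtor2 down, at -0.66 and -0.87. Of 14 GATOR, KICSTOR and sensor genes, 5 rose and 6 fell in WT. The 3 largest rises in WT were of subunits of GATOR2, which activates mTORC1: Seh1l (1.45 and 1.71), Wdr59 (1.16 and 1.11) and Sec13 (1.12 and 1.19), of which Seh1l and Sec13 also serve in nuclear pores. The other risers of this list, chosen after their values were seen, were the GATOR1 subunit Depdc5 (0.97 and 1.23) and the GATOR2 subunit Mios (0.73 and 0.82). The S-adenosylmethionine sensor Bmt2 (-1.97 and -1.71), the GATOR1 subunit Nprl2 (-1.44 and -1.33) and the arginine sensor Castor1 (-1.24 and -1.60) fell. The GATOR2 subunit Wdr24, chosen in the same way, fell too (-0.32 and -0.34), so that both complexes held subunits that rose and subunits that fell.

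Upstream, 3 of 13 PI3K and AKT genes rose and 4 fell in WT. Akt1 rose by 1.23 and 1.30, the AKT phosphatase Phlpp2 by 1.37 and 1.38, and the regulatory subunit Pik3r2 by 0.42 and 0.49. The catalytic subunits Pik3cd (-1.48 and -1.67) and Pik3cb (-1.22 and -0.99) fell. Of 8 AMPK and LKB1 genes tested, 2 rose and 3 fell: the LKB1 partners Strada (0.58 and 0.34) and Cab39 (0.29 and 0.39) rose, and LKB1 itself (Stk11, -0.56 and -0.66) and the AMPK subunits Prkab1 (-0.70 and -0.68) and Prkag1 (-0.24 and -0.31) fell.

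Downstream, 8 of 20 substrates and effectors rose and 11 fell in WT, beside 37.7% and 39.2% of all genes. The translational repressor Eif4ebp1 rose by 3.11 and 3.50 together with its target, the cap-binding factor Eif4e (1.75 and 1.95), and with Larp1 (1.53 and 1.70), which binds transcripts of ribosomal proteins. Pdcd4, a repressor of translation (-2.09 and -2.40), the lipid phosphatase Lpin1 (-1.89 and -1.57) and Maf1, a repressor of RNA polymerase III (-1.88 and -1.95), fell. Of the 7 factors known to act on Ddit4 or sestrin genes, 1 rose and 5 fell in WT: p53 (Trp53) rose by 0.29 and 0.37, and Ddit3 (-2.03 and -2.18), the glucocorticoid receptor Nr3c1 (-1.59 and -1.52) and Foxo3 (-1.27 and -1.23) fell. Whether any of these bears on the members was not tested.

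**Figure D5:**
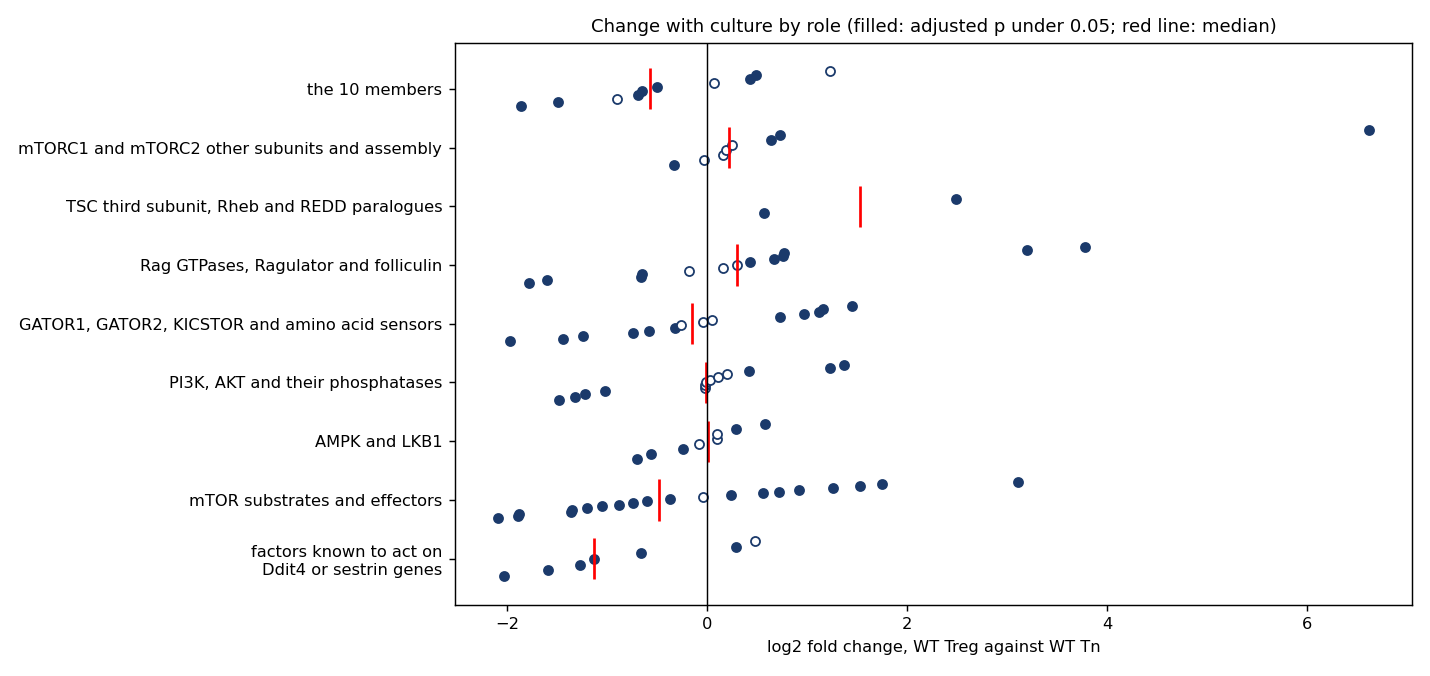
Log2 fold change of WT Treg against WT Tn (horizontal axis) of the 10 genes and of 8 lists of other pathway genes by role, 1 point a gene, filled where edgeR adjusted p is under 0.05, with a red line at each list's median. Every list but the short one of the further TSC subunit and the Rheb relative holds genes on both sides of 0, and Prr5l, whose Tn level is close to 0, lies farthest to the right.

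Of the 3 members with the largest change with culture in WT, the genes with the most similar pattern over the 16 libraries were named by Pearson correlation of log2 CPM, as a description, since all libraries share the difference between states. Nearest to Sesn1 were Slc28a2 (r = 0.996), Txnip (0.995) and Sema4a (0.994). Txnip, an inhibitor of glucose uptake, was at a mean of 1489 CPM in WT Tn and 79.1 in WT Treg. Nearest to Rictor were Chd2 (0.992), Tacc1 (0.990) and Pcf11 (0.990). For Sesn2 the nearest were Otulin (0.954), Arpc1a (0.954) and Traf4 (0.947), all at lower r than the neighbours of Sesn1 and Rictor.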

How the data were processed

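The authors prepared stranded mRNA libraries, mapped reads with STAR to GRCm38 and quantified genes with RSEM. They deposited the expected count of 53090 genes per library, neither normalized nor filtered. Tool versions and the strand setting are not given in the sources used here.

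Expected counts were rounded to whole numbers. Groups and replicate numbers came from the sample titles. A gene was tested if 4 or more of the libraries compared held 10 or more counts, with edgeR 4.0.16 in R 4.3.3 (quasi-likelihood F test, two-sided, robust, TMM), with Benjamini-Hochberg adjustment over all genes tested and a threshold of 0.05, on the 8 libraries compared, and for the interaction on all 16. CPM used TMM factors, and CPM per kb the exon length in GENCODE M21, the source of coordinates. That length joins all annotated exons of a gene and is not the length of the transcripts expressed. Orders between genes and sestrin shares per kb depend on it. The fits were tested on simulated counts. Promoters were from RefSeq (GRCm38.p6), and all 10 symbols matched.

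Alternatives were DESeq2 1.42.0, limma-voom (limma 3.58.1), other scaling, filters, library sets, blocks, a GC and length correction, and leaving out 1 library at a time. The members and the lists were chosen with earlier results of these data known. Named pathway genes were, for each role, at most 3 in each direction with the largest change among those called in both genotypes. A gene that this rule selects and a marker list are not reported here. The most similar genes were named for the 3 members with the largest WT change with culture.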

Additional observations from a re-analysis of the deposited data

Results flagged for a closer look

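Of 44 sets of 4 libraries checked (the 10 members and Aim2 in 4 groups), 5 held a library whose gap to its nearest neighbour was large for the range of its group, a rule that chance meets in about 1 of 20 sets. In Aim2-/- Tn these were Rptor in replicate 1 (49.2 CPM, the highest, beside 35.8 to 37.0 in the others), Rictor in replicate 3 (86.6, the lowest, beside 124.6 to 131.5), Tsc2 in replicate 2 (86.8, the highest, beside 76.4 to 76.9) and Aim2 in replicate 1 (9.21, the highest). In Aim2-/- Treg it was Ddit4 in replicate 3 (46.9, the highest, beside 32.0 to 33.4). Without the library that stood apart the Tn genotype values were -0.49 for Rptor, -0.15 for Rictor and -0.00 for Tsc2, and the Treg value of Ddit4 was -0.21, none of them called.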

How the results depend on the processing

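The members called with culture kept their direction and call under every alternative run in both genotypes, apart from Rptor and Sesn2 in Aim2-/- cells, as given beside them, and 7 to 8 of 10 were called in WT and 8 to 9 in Aim2-/- cells without 1 library. Over all genes 9478 to 10058 were called in WT and 9849 to 10276 in Aim2-/- cells without 1 library, beside 10516 and 10878 with all. Between genotypes 0 members were called in Tn under every alternative except replicates 3 and 4 only, where 2 were (Ddit4 and Sesn2), and 0 were called in Treg or for the difference between states. In that fit of 2 against 2 libraries 516 genes were called in all, beside 31 over all replicates, and nothing particular to the members is read from it.

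Counts over all genes moved more. For Tn, 31 genes were called by edgeR, 127 by DESeq2, 47 with no filter on low counts, 18 with at least 10 counts in every library, 50 with all 16 libraries in one fit, 51 with replicates 1 and 2 against 3 and 4 as a covariate, 15 in replicates 1 and 2, 516 in replicates 3 and 4, and 17 to 28 without 1 library. For Treg, 29 became 52 by DESeq2, 17 with at least 10 counts in every library, 15 in replicates 1 and 2, 4 in replicates 3 and 4, and 10 to 17 without 1 library. For the difference between states, 3 became 10 by DESeq2, 0 with at least 10 counts in every library and 2 to 5 without 1 library. The cause was not tested.

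Log2 fold changes that turned in sign were all uncalled over all replicates. In Tn between genotypes, Sesn2 was 0.22 by limma-voom, 0.21 with the replicate block, 0.12 with the replicate block and the GC and length correction, 0.23 with that covariate and 0.98 in replicates 3 and 4, and -0.39 to 0.38 without 1 library. Tsc2 was -0.00 in replicates 3 and 4 (-0.00 to 0.07 without 1 library), and Ddit4 was 0.19 in replicates 1 and 2. In Treg between genotypes, Mtor, Tsc2 and Rheb were each -0.02 on library totals, Mtor -0.01 and Tsc2 -0.00 in replicates 1 and 2, Rheb -0.03 in replicates 3 and 4, and Sesn1 0.05 and Sesn3 0.06 in replicates 1 and 2. Without 1 library the Treg ranges were -0.02 to 0.03 for Mtor, -0.02 to 0.02 for Tsc2, -0.05 to 0.05 for Rheb, -0.15 to 0.02 for Sesn1 and -0.21 to -0.00 for Ddit4, whose highest value is just across 0. With culture, Ddit4 was 0.42 in WT and 0.16 in Aim2-/- cells in replicates 1 and 2, and 0.08 in Aim2-/- cells with the replicate block and the GC and length correction. For the difference between states, Rictor was -0.02 with that block and correction, -0.00 with the correction alone and -0.12 in replicates 3 and 4, and Sesn3 was -0.03, -0.01 and -0.18 under the same. In replicates 1 and 2 Tsc1 was -0.03, Ddit4 -0.22 and Sesn1 0.06, and in replicates 3 and 4 Tsc2 was 0.02, Rheb -0.02 and Sesn2 -0.31. Without 1 library the ranges were -0.04 to 0.22 for Rictor, -0.08 to 0.02 for Tsc2 and -0.09 to 0.25 for Sesn3.

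The replicate numbers were not taken to pair libraries, since in no comparison did all 4 same-numbered pairs correlate above 0.1, although 3 of 4 did between genotypes in Treg. Their deviations from the group means correlated at 0.18, 0.04, 0.3 and 0.02 between genotypes in Tn, 0.39, 0.23, -0.01 and 0.35 in Treg, 0.02, 0.13, 0.02 and -0.02 between states in WT, and 0.09, -0.04, 0.02 and 0.02 in Aim2-/- cells. The means were 0.14, 0.24, 0.04 and 0.02 in the same order. Those between genotypes were above 0.1, so that a pairing there is not excluded. With the replicate block 29 genes were called in Tn, 41 in Treg, 10352 and 10859 with culture and 2 for the difference between states, and 0, 0, 7, 9 and 0 members. Each member had at least 160 counts in every library, and counting error was not separated from the spread between replicates.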
